A study of Mus musculus with 2 samples.

Results

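Astrocytes are the glial cells that take up glutamate and potassium around synapses, join into networks through gap junctions and line blood vessels with endfeet. The genes described here are 10 widely used astrocyte markers: the glutamate transporters Slc1a2 and Slc1a3, the connexins Gja1 and Gjb6, the water channel Aqp4, the filament gene Gfap, the calcium-binding protein gene S100b, the enzymes Aldoc and Aldh1l1 and the transcription factor Sox9. Their probe sets were found by symbol, among those whose annotation names 1 gene, and the list was drawn up with earlier results of these data known. All 10 were found among the 22180 named genes, and each had 1 probe set. Some of them are known outside astrocytes too: S100b in part of the oligodendrocyte lineage and Aldoc in cerebellar Purkinje neurons.

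RNA was taken from ribosomes precipitated with an antibody to the haemagglutinin tag from medial prefrontal cortex of adult D2Cre::RiboTag mice. In such mice Cre, driven by Drd2 (the dopamine D2 receptor gene), switches a ribosomal protein to its tagged form. The sample titles name the RNA as Drd2+ cell mRNA. There was 1 group with 2 technical replicates, each labelled as a pool of 5 mice, and the labels do not say outright that the pool was shared. The tagged mice were the only genotype, and neither unprecipitated RNA nor a mock precipitation was analysed here. Which cells the astrocyte signal came from was therefore not tested. The number of astrocytes and the RNA per astrocyte cannot be told apart in such data.

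Values are log2 signals, a scale taken from their range of 1.66 to 14.18, given for replicate 1 and replicate 2 in that order, then as mean ± SD over the 2 technical arrays. Their SD is one between technical replicates and cannot be read as variation between animals, so no test or p-value is given. Over all probe sets, which do not count as replicates, Pearson's r between the arrays was 0.9941. Drd2 itself stood at 10.78 and 10.70, and all 12 general neuronal genes examined were above background, beside 60.2% of all named genes. Whether these signals were enriched over unprecipitated RNA was not tested. Background was read from the 1105 olfactory receptor (Olfr) genes of the array, most of which serve in the nose. A gene was called above background where it exceeded the 95th percentile of the Olfr genes on both arrays, 5.61 on replicate 1 and 5.68 on replicate 2. Since probe sets differ in how strongly they bind, each marker is set against this threshold. Distances over it are not read as differences in expression between markers.

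All 10 astrocyte markers exceeded background on both arrays. The same call was made for 63.2% of named genes other than Olfr genes and for 60.2% of all named genes. The median signal of the markers was 7.87, against 6.355 over all named genes and 7.905 over the genes above background. Their distance over the threshold, averaged over the arrays, ran from 0.08 for Gjb6 to 5.41 for Aldoc.

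**Figure D1:**
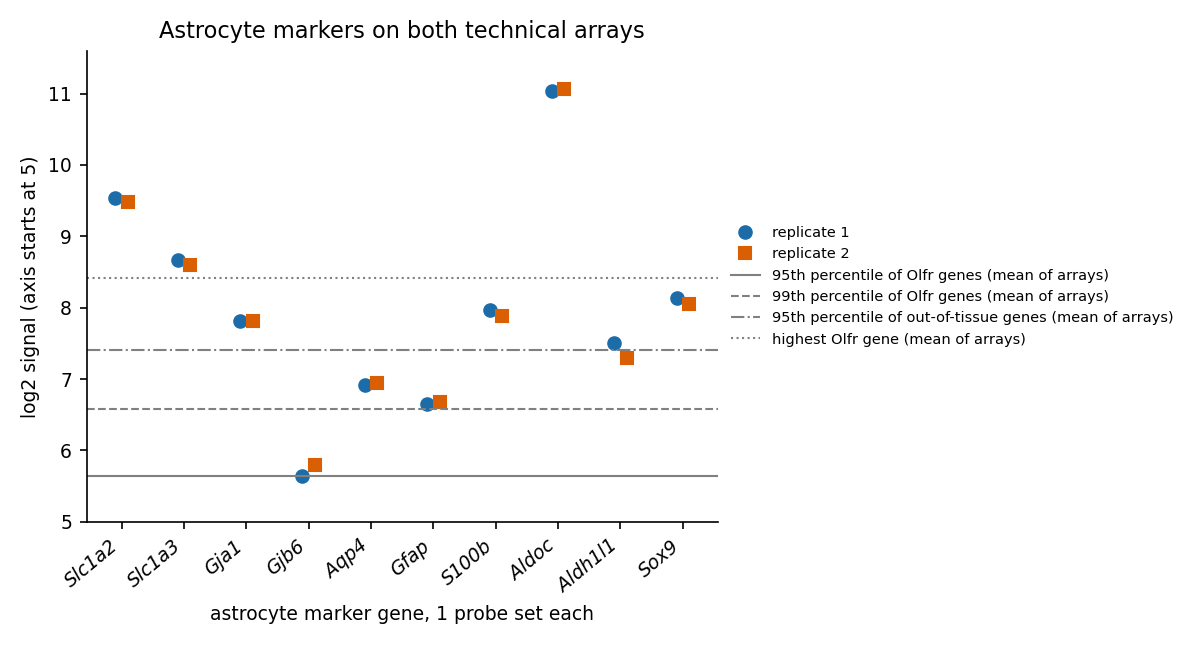
Log2 signal of the 10 astrocyte markers (x axis) on replicate 1 (circles) and replicate 2 (squares), with horizontal lines at 4 background thresholds averaged over the arrays. Slc1a2, Slc1a3 and Aldoc lie over all 4 lines on both arrays, and Gjb6 lies at the lowest line, with replicate 1 at 5.64 and replicate 2 at 5.80.

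The glutamate transporters gave clear signal. Slc1a2, which encodes GLT-1, the main glutamate transporter of forebrain astrocytes, was at 9.54 and 9.48 (9.51 ± 0.04), 3.87 over the threshold. Slc1a3, which encodes GLAST, was at 8.67 and 8.60 (8.635 ± 0.05), 2.99 over it. For both, 0 of the 1105 Olfr genes reached the marker's mean. Of the 7 measured genes of the Slc1 family, 6 were above background (85.7%, beside 63.2% of named genes other than Olfr genes). Slc1a1, the glutamate transporter best known from neurons, was at 10.66 and 10.72. The neutral amino acid transporter gene Slc1a4 was at 9.08 and 9.30, and Slc1a6, known from Purkinje cells, at 8.33 and 8.24. The retinal transporter gene Slc1a7 was near the threshold at 5.87 and 5.82, and Slc1a5 was not above it at 5.11 and 5.31. The family's signal was thus not limited to its astrocyte members.

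Of the gap junction markers, Gja1 cleared background by a wide margin and Gjb6 barely did. Gja1 encodes connexin 43, the main connexin of astrocytes, and was at 7.82 and 7.81 (7.815 ± 0.01), 2.17 over the threshold. Only 1 Olfr gene reached that level. Gjb6 encodes connexin 30, which pairs with it in astrocytes of grey matter. It was at 5.64 and 5.80 (5.72 ± 0.11), over the threshold by 0.03 on replicate 1 and 0.12 on replicate 2. As many as 47 Olfr genes (4.25%) reached its mean, so the call for Gjb6 rests on a margin smaller than the 0.16 between its arrays. It was not above the 99th percentile of the Olfr genes (6.60 and 6.57) or the median of all probe sets (5.80 and 5.81).

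Across the connexin family, 9 of 16 measured genes were above background (56.2%, beside 63.2% of named genes other than Olfr genes). Gjb2, which encodes connexin 26 and is also made by astrocytes and meningeal cells, was at 6.99 and 6.86. The oligodendrocyte connexin genes Gjc3 and Gjb1 were at 7.83 and 7.80 and at 5.90 and 6.05. Gjd2, which encodes the neuronal connexin 36, was at 6.71 and 6.88. The remaining genes above background were Gjd3 at 6.85 and 6.82, Gja5, known from arterial endothelium, at 5.82 and 6.02, and Gja3, known from lens, at 5.71 and 5.71. Connexin genes typical of astrocytes, oligodendrocytes and neurons were thus all called. The vascular gene Gja4, at 5.52 and 5.83, passed on replicate 2 only. Gja6, Gja10, Gjb5, Gjc1, Gjd4 and Gje1 lay between 3.02 and 5.32 and did not pass.

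Aqp4, the water channel of astrocyte endfeet, was at 6.92 and 6.94 (6.93 ± 0.01), 1.29 over the threshold, and 2 Olfr genes reached its mean. Of the 11 measured aquaporin genes, 6 were above background (54.5%, beside 63.2% of named genes other than Olfr genes). Aqp11, an intracellular aquaporin gene, was at 8.17 and 8.13. The other genes above background were Aqp1, known from choroid plexus, at 6.15 and 6.17, Aqp2, known from kidney, at 6.38 and 6.24, Aqp5, known from glands, at 6.41 and 6.58, and Aqp7, known from fat, at 6.03 and 6.16. Those 4 lay under the 99th percentile of the Olfr genes on at least 1 array. Aqp4 and Aqp11 were the aquaporin genes over it on both. Aqp12 passed the main threshold on replicate 1 only, at 6.47 against 5.66, and Aqp3, Aqp6, Aqp8 and Aqp9 on neither array.

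Gfap encodes the filament protein used to stain astrocytes, which in healthy cortex is low in many grey matter astrocytes. It was at 6.65 and 6.68 (6.665 ± 0.02), 1.02 over the threshold. Of the Olfr genes, 7 (0.633%) reached its mean, and it passed their 99th percentile by 0.05 on replicate 1 and 0.11 on replicate 2. Among the 10 measured filament genes, 8 were above background (80%, beside 63.2% of named genes other than Olfr genes). The neuronal filament genes Ina, Nefl, Nefm and Nefh were at 11.96 and 11.97, 11.71 and 11.63, 9.52 and 9.38, and 8.43 and 8.43. Vim, the vimentin gene of immature and reactive astrocytes and of vessel cells, was at 7.14 and 7.20, and its partner Synm at 7.21 and 7.23. The peripheral neuron gene Prph was at 5.80 and 5.82. Nes (5.94 and 5.56) and the muscle gene Des (5.60 and 5.92) each passed on 1 array only. Filament genes of neurons and of glia were thus both called.

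S100b was at 7.97 and 7.88 (7.925 ± 0.06), 2.28 over the threshold, with 1 Olfr gene at or above it. In its family 10 of 16 measured S100 genes were above background, and this share of 62.5% is near the 63.2% of named genes other than Olfr genes. S100a1, S100a6, S100a10 and S100a11 were at 8.06 and 8.26, 8.77 and 8.77, 9.70 and 9.62, and 8.18 and 8.32. S100a3, S100a7a, S100a13, S100a14 and S100a16 lay between 5.91 and 6.74. S100a8 and S100a9, known from neutrophils, did not pass at 4.52 and 4.42 and at 5.32 and 5.09, nor did S100a4, S100a5, S100g and S100z.

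The metabolic markers were both above background. Aldoc, the brain form of the glycolytic enzyme aldolase, was at 11.04 and 11.06 (11.05 ± 0.01), 5.41 over the threshold. Aldh1l1, a folate enzyme much used to label astrocytes as a class, was at 7.50 and 7.30 (7.40 ± 0.14), 1.76 over it, with 1 Olfr gene at or above its mean. In the aldehyde dehydrogenase 1 family 5 of 7 genes were above background (71.4%, beside 63.2% of named genes other than Olfr genes). Apart from Aldh1l1 these were Aldh1a1 at 7.83 and 7.70, Aldh1a2 at 5.94 and 5.88, Aldh1a3 at 6.91 and 6.84, and the mitochondrial Aldh1b1 at 7.79 and 7.88. Aldh1l2, the mitochondrial counterpart of Aldh1l1, was not above background at 5.19 and 5.44, nor was Aldh1a7 at 4.72 and 5.05.

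Sox9, a transcription factor restricted largely to astrocytes in adult cortex, was at 8.13 and 8.05 (8.09 ± 0.06), 2.45 over the threshold, with 1 Olfr gene at or above it. All 3 members of its SoxE group were above background, beside 63.2% of named genes other than Olfr genes. Sox8 was at 9.09 and 9.13 and Sox10, which marks the oligodendrocyte lineage, at 6.98 and 6.90. Factors of both macroglial lineages were thus called.

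**Figure D2:**
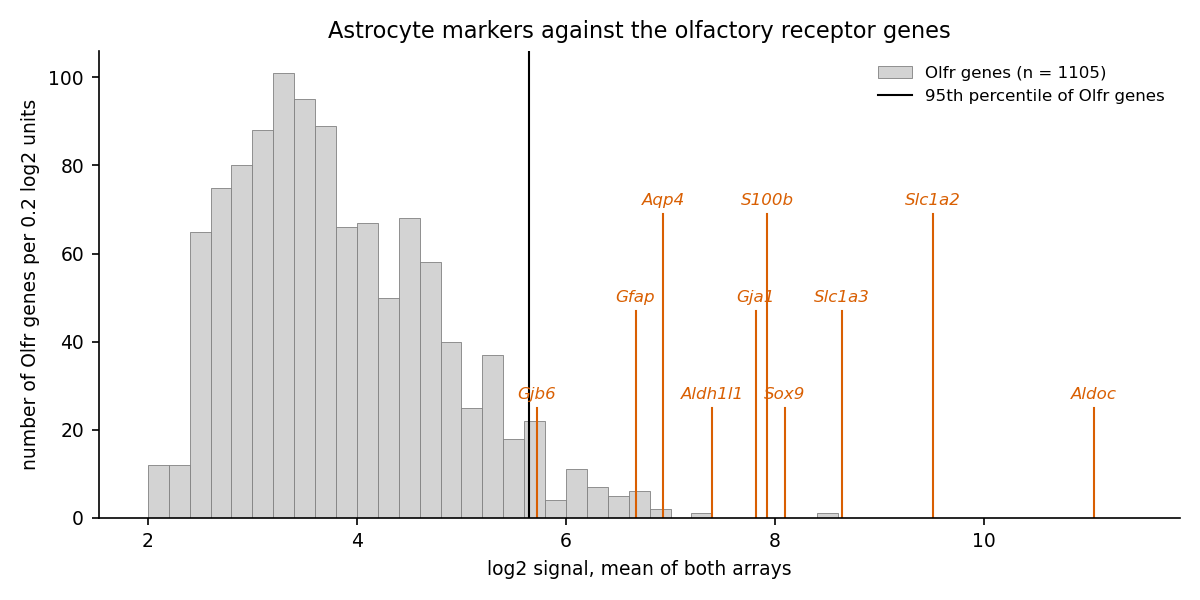
Number of Olfr genes (grey bars) by log2 signal averaged over the arrays, in steps of 0.2, with the 95th percentile (black line) and the 10 astrocyte markers (orange lines, whose heights only separate the names). The bulk of the Olfr genes lies to the left of every marker, and Gjb6 falls in their upper tail.

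The Olfr genes had a median of 3.655 and reached up to 8.41. By construction few of them pass their own threshold: 44 of 1105 (3.98%) did so on both arrays. Olfr1360 was named after its value was seen; at 8.40 and 8.42 it stood far over the next, Olfr1411, at 7.06 and 7.41. Olfr1360 reached the levels of Aldh1l1, Gja1, S100b and Sox9 on both arrays, and Olfr1411 reached that of Aldh1l1 on replicate 2 only. Slc1a2, Slc1a3 and Aldoc, 3 of the 10 markers, exceeded every Olfr gene on both arrays, as did 24.4% of named genes other than Olfr genes. With Olfr1360 set aside, the count was 6 markers, against 38% of those genes.

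Both arrays gave nearly the same values for each marker. Differences of replicate 2 from replicate 1 lay between 0.01 and 0.20 in size, with a median of 0.065, beside 0.09 over genes above background and 0.21 over Olfr genes. Aldh1l1 had the widest gap, 0.20 lower on replicate 2. Of the 2775 named genes within 0.5 log2 units of its mean, 18.9% differed at least as much. For Gjb6, whose gap was 0.16, that share was 47.6% of 4020 genes. Gja1 differed by 0.01, and 96.5% of the 2767 genes near it differed at least as much. In all, 6 markers were higher on replicate 1 and 4 on replicate 2.

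**Figure D3:**
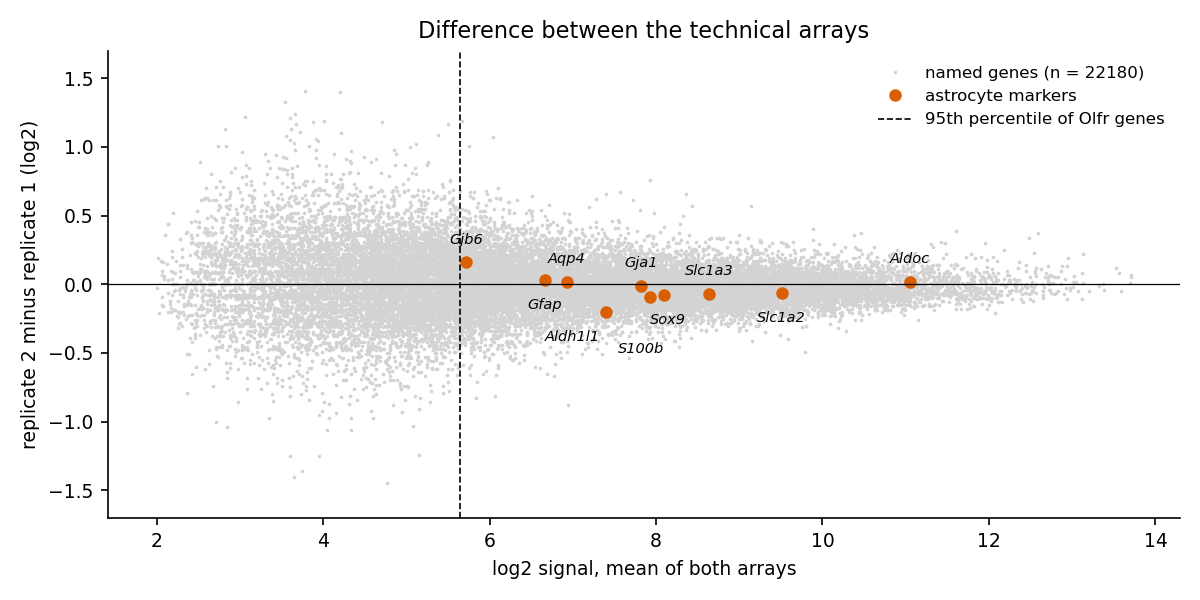
Difference of replicate 2 minus replicate 1 against mean log2 signal for 22180 named genes (grey) and the 10 astrocyte markers (orange), with the 95th percentile of Olfr genes as a dashed line. The markers lie within the cloud of genes of similar signal, with Aldh1l1 the lowest at -0.20 and Gjb6 the highest at 0.16.

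A wider set of 53 measured genes known from astrocytes was read in the same way. Of these, 51 were above background (96.2%, beside 63.2% of named genes other than Olfr genes), and their median was 7.65. The count was 49 with the lowest probe set of each gene. The same 63.2% stands beside each list within this set. Genes of amino acid uptake passed in 6 of 7 cases. The serine transporter gene Slc7a10 was at 7.18 and 7.12, the GABA transporter gene Slc6a11 at 9.27 and 9.39, and Glul, which encodes glutamine synthetase, at 8.57 and 8.66. Glul averaged probe sets at 11.05 and 6.175, both above background. The cystine transporter gene Slc7a11 was not above it at 5.61 and 5.63, although 1 of its probe sets passed at 6.97 and the other did not at 4.26.

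All 8 measured ion and water genes passed. The potassium channel gene Kcnj10 was at 8.42 and 8.32 and its partner Kcnj16 at 6.14 and 6.49, the bicarbonate transporter gene Slc4a4 at 9.60 and 9.50, and the sodium pump subunit gene Atp1b2 at 11.63 and 11.56. Likewise, all 13 metabolic genes passed, among them the lipoprotein genes Apoe at 7.69 and 7.64 and Clu at 10.51 and 10.54, the acyl-CoA synthetase gene Acsbg1 at 7.39 and 7.43, and Ndrg2 at 10.22 and 10.27.

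All 14 receptor, surface and secreted protein genes exceeded background as well. Fgfr3, a growth factor receptor gene, was at 7.50 and 7.42, the neurotensin receptor gene Ntsr2 at 8.68 and 8.86, the endothelin receptor gene Ednrb at 7.64 and 7.50, and the sphingosine phosphate receptor gene S1pr1 at 8.46 and 8.65. All 8 transcription factor genes passed, with Nfia at 7.68 and 7.61, Nfib at 10.41 and 10.35, Id4 at 7.74 and 7.52 and Hes5 at 6.61 and 6.85. Several genes of this wider set, such as Clu, Nfib and Sparcl1, are known from neurons too.

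Most of the genes listed here as induced in reactive astrocytes were not above background. The list leaves out Gfap (6.65 and 6.68) and Vim (7.14 and 7.20), which were counted with the filament genes and passed. Of the 11 listed genes, 4 were above background (36.4%), beside 63.2% of named genes other than Olfr genes and 33.3% of 24 genes of testis, liver and skeletal muscle. Their median signal was 5.565. Lcn2, a secreted lipocalin gene and a strong marker of reactive astrocytes, was at 5.13 and 5.51, Steap4 at 5.43 and 5.19 and the protease inhibitor gene Timp1 at 5.18 and 4.58. Those 3 did not pass. Serpina3n, a protease inhibitor gene, was at 10.53 and 10.53 and exceeded every Olfr gene. The sphingosine phosphate receptor gene S1pr3 was at 7.15 and 7.12, Aspg at 6.08 and 6.08, and Cd44 at 5.74 and 5.69, over the threshold by 0.13 and 0.01. No injured or inflamed sample was analysed here.

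**Figure D4:**
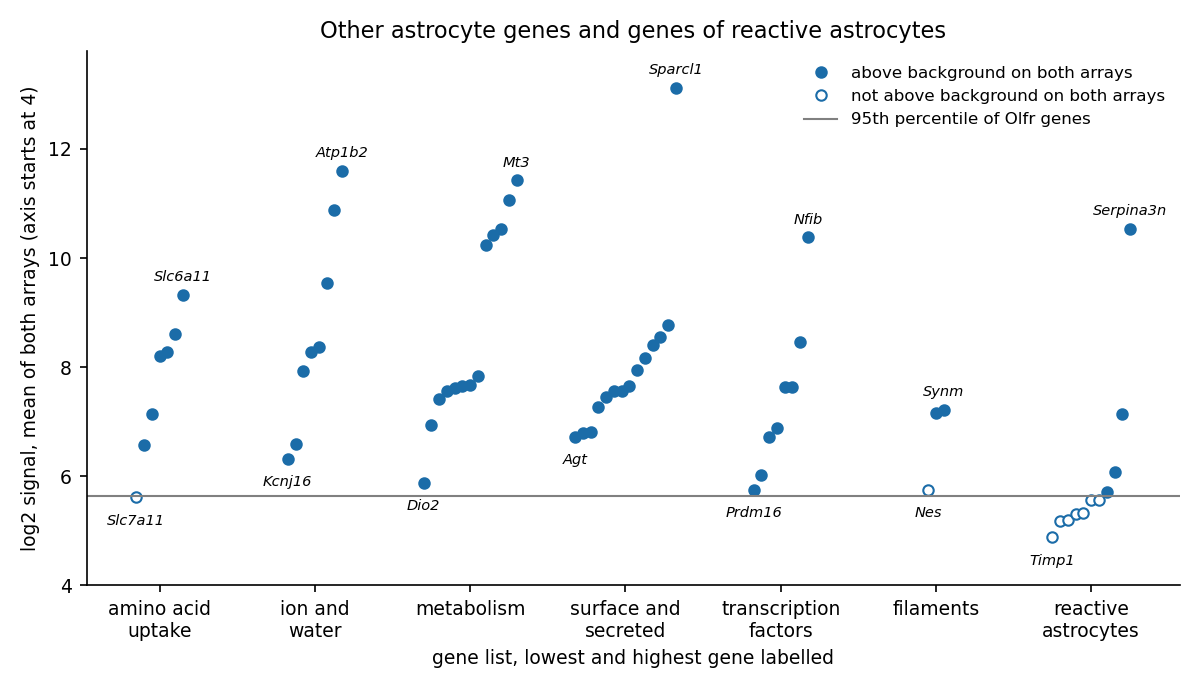
Log2 signal averaged over the arrays (y axis) for genes of 6 astrocyte lists and for genes of reactive astrocytes (x axis); filled points passed the 95th percentile of Olfr genes on both arrays and open points did not. Slc7a11 and Nes are the open points of the astrocyte lists, whereas 7 of 11 genes of the reactive list are open, with Serpina3n far over the rest at 10.53.

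Markers of other cell types were set against the same thresholds. The main threshold was passed by 63.2% of named genes other than Olfr genes. All 9 measured oligodendrocyte markers, all 6 precursor markers, all 9 microglia markers and 9 of 10 vessel markers passed it. This threshold thus did not separate the astrocyte list from those lists. It was also passed by 8 of the 24 genes of testis, liver and skeletal muscle (33.3%). At the 99th percentile of the Olfr genes, which 48.1% of named genes other than Olfr genes passed, 9 of 10 astrocyte markers remained, with Gjb6 lost. The counts there were 8 of 9 for oligodendrocytes, 4 of 6 for precursors, 5 of 9 for microglia and 5 of 10 for vessels. A stricter threshold came from the 95th percentile of those 24 genes, at 7.40 and 7.41. It lies just under the sperm gene Odf1 (7.46 and 7.54), whose probe sets stood far apart at 4.98 and 10.02. This threshold was passed by 37.4% of named genes other than Olfr genes and by 6 of 10 astrocyte markers: Slc1a2, Slc1a3, Gja1, S100b, Aldoc and Sox9. Aldh1l1 passed it on replicate 1 only, and Gfap, Aqp4 and Gjb6 on neither array. There, 7 of 9 oligodendrocyte, 2 of 6 precursor, 3 of 9 microglia and 1 of 10 vessel markers passed, beside 12 of 12 neuronal genes. Differences between lists were not tested, because their probe sets differ and the study has 1 condition.

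**Figure D5:**
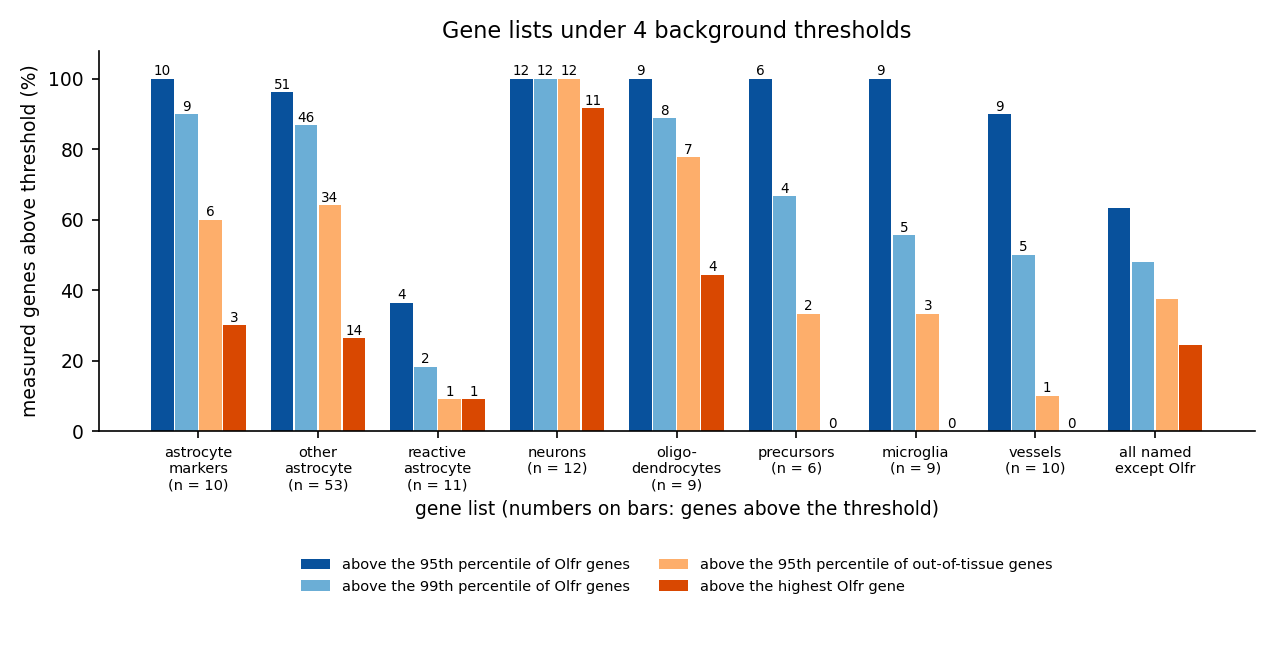
Share of measured genes above each of 4 thresholds on both arrays (bars, with the number of genes on top) for 8 gene lists and for all named genes other than Olfr genes. Astrocyte markers go from 10 of 10 to 9, 6 and 3 as the threshold rises, while 11 of 12 neuronal genes stay over the highest one.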

How the data were processed

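The authors deposited 1 log2 signal per probe set and array, with 2 decimals. The scale is read from the values; for the log base and for background correction, summarisation and normalization, nothing is stated: not given in the sources used here. RNA was extracted with Trizol and a column and labelled with the Affymetrix WT Plus kit, per the labels' protocols. Of 34472 probe sets, 23521 named 1 gene in the platform annotation, 1814 named several and were not used, and 9137 are unnamed here. Symbols were checked by gene identifier against RefSeq genes of GRCm38.p6, which changed 0. Probe sets of a gene were averaged (1082 of 22180 genes had more than 1). Calls used the 95th percentile of Olfr genes on each array. Named are all markers, the measured genes of their families, the first 4 measured genes of each other astrocyte list, and genes whose call differed from that of most of their list. Markers of neurons and of other glia and vessels are given as counts. The markers and lists were chosen with earlier results of these data known. Alternatives covered the threshold, the averaging, quantile normalization and each array alone. Calling was tested on simulated data only for genes set 1 log2 unit above or below the threshold, so calls closer to it were not covered. The number of arrays limits the precision. Python 3.11.15 and pandas 2.3.3 were used.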

Additional observations from a re-analysis of the deposited data

How the results depend on the processing

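The count of astrocyte markers above background was 9 at the 99th percentile of the Olfr genes and at the median of all probe sets, and 10 with quantile normalization or with vomeronasal genes in the background. It was 6 with the threshold from testis, liver and muscle genes, 3 with the highest Olfr gene and 6 with the second highest, an alternative added after the data were seen. All named genes above background numbered 7880, 5135 and 8018 under these. Of the 53 other astrocyte genes, 14 passed the highest Olfr gene. This share of 26.4% is near the 24.4% of named genes other than Olfr genes that passed it. On 1 array alone, without replicate 1 or without replicate 2, all 10 markers passed, as they had to, since the call requires both arrays, and the median of the markers was 7.845 and 7.895. Gjb6 was lost at the thresholds from other tissues and from the highest and second highest Olfr gene, at the 99th percentile of the Olfr genes and at the median of all probe sets. The threshold from other tissues rests on few genes and lies close to Odf1, whose probe sets disagree. Each marker has 1 probe set, so other ways of averaging probe sets could not change its level and say nothing about its stability. No paired analysis was possible because the study has 1 group.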

Other observations

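A few signals invite a second look. Olfr1360, an olfactory receptor gene, was at 8.40 and 8.42, over 7 of the 10 astrocyte markers on both arrays. Among the genes of other tissues, chosen for naming after their values were seen, the skeletal muscle actin gene Acta1 was at 7.89 and 8.08 and the sperm gene Odf1 at 7.46 and 7.54, the latter from probe sets at 4.98 and 10.02. Serpina3n was at 10.53 on both arrays while 7 of the 11 genes of the reactive astrocyte list, which leaves out Gfap and Vim, were not above background.

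Probe sets of a gene did not always give the same call. Among astrocyte genes with more than 1 probe set, Dio2 had probe sets at 4.765 and 6.98, Prdm16 at 5.045 and 6.445 and Slc7a11 at 4.26 and 6.97, on different sides of the threshold each time. The 10 markers have 1 probe set each, so no such check exists for them.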
